A study of Mus musculus with 2 samples.

Results

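The Gimap genes encode GTPases of immunity-associated proteins, a family of small GTP-binding proteins found mainly in lymphocytes. They were followed here in Treg (regulatory T cells), a CD4 subset that restrains immune responses. The members were the mouse genes Gimap1, Gimap3, Gimap4, Gimap5, Gimap6, Gimap7, Gimap8 and Gimap9. Every probe set that the platform annotation paired with exactly 1 of these symbols was taken, which gave 11 probe sets for 8 genes out of 18193 genes with such a probe set. No Gimap probe set carried several symbols. Gimap4, Gimap6 and Gimap7 had 2 probe sets each and the other 5 genes had 1. All 11 Entrez identifiers carried the same symbol in the RefSeq gene table.

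The data were 2 Affymetrix arrays, 1 per genotype. Treg had been sorted by FACS out of spleen and lymph nodes; the mice were females of 6 to 8 weeks. One array came from Foxp3 Cre/wtS Stat3 fl/fl animals, in which both copies of Stat3 are flanked by loxP sites. The other came from Foxp3 Cre/wtS Stat3 fl/wt animals, with 1 such copy. Both groups therefore carried Cre at 1 Foxp3 allele, on the X chromosome, so that in females Cre acts only in Treg that use that X. The labels give neither the number of mice behind an array nor whether the sort kept only Cre-bearing cells. The comparison asks which transcripts differ when Treg can lose both copies of Stat3, the transcription factor of IL-6 and IL-10 family signals, rather than 1. Since each genotype had a single array, replicate error is unknown and no difference below has a test or a p-value.

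Values were log2 signals after GCRMA, a method that subtracts a sequence-based background and normalises arrays to each other. A probe set at or above log2 5 in both arrays was taken as measured, which held for 16493 of 34945 probe sets with 1 symbol. Stat3 itself read 11.99 in fl/fl and 12.00 in fl/wt at its brightest probe set, a difference of -0.0083. Its other measured probe sets differed by -0.019 and -0.083. A further Stat3 probe set lay under log2 5, at 2.36 in fl/fl and 2.26 in fl/wt. Which exons are floxed is not stated in the labels, so these values do not check them. Of 8 Treg markers with a probe set, 7 were measured, from Ctla4 (14.87 in fl/fl, 14.91 in fl/wt) to Nrp1 (12.33 in fl/fl, 12.31 in fl/wt). The exception was Foxp3, the defining factor, whose probe set lay under log2 5 in both arrays at 3.52 (fl/fl) and 4.09 (fl/wt). The identity of the cells therefore rests on the label and on the other markers. Myeloid markers were bright too, such as Csf1r (14.00 in fl/fl, 13.99 in fl/wt). The Treg markers thus do not show that the RNA came from Treg alone.

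Gimap proteins bind GTP through a domain shared with plant disease-response proteins, and many sit on membranes of lysosomes, mitochondria or the endoplasmic reticulum. They are known for keeping mature lymphocytes alive: rats with a truncated Gimap5 lack most T cells, and mice without Gimap1 or Gimap5 lose T and B cells. Mouse Gimap3 and Gimap5 bind the survival proteins Bcl2 and Bcl-xL, whereas Gimap4 has been tied to faster T cell death.

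In the RefSeq gene order of GRCm38.p6 the 8 genes formed 1 uninterrupted run of coding genes on chromosome 6: Gimap8, Gimap9, Gimap4, Gimap6, Gimap7, Gimap1, Gimap5 and Gimap3. Between them lay 2 other annotated genes, neither of them coding. Of the 8, 6 are read from the plus strand, and Gimap6 and Gimap3 from the minus strand. RefSeq holds a promoter window of 300 bases, 250 before to 50 after the start, for all 8 genes, with 2 starts for Gimap8. These windows were searched on both strands for TTCNNNGAA, the palindrome that Stat proteins recognise, because Stat3 is the floxed gene. The letters occurred in 1 window each of Gimap3, Gimap6, Gimap7 and Gimap8, that is 4 of 8 genes, against 9.55% of 27025 genes with a window. The 4 matches are given with up to 10 bases on each side, read 5′ to 3′ on the strand of the gene, with the match in capitals.
Gimap8, chr6:48647304-48647332, plus strand, starting 47 bases before the second start: aacctctttcTTCCTAGAAacatttggaa
Gimap6, chr6:48708460-48708488, minus strand, starting 234 bases before the start: ttagaccttgTTCTAAGAAaagagattta
Gimap3, chr6:48770838-48770866, minus strand, starting 5 bases before the start: agcaccccttTTCAGAGAAactcatgtac
Gimap7, chr6:48718651-48718670, plus strand, starting 40 bases after the start: tgcagtcagaTTCTTTGAAg
The distances are to the first base of the match. A match describes the letters only and does not show that Stat3 binds there.

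For wider context, the 250 bases before the start are given for Gimap6, which holds a match, and for Gimap9, which holds none and had the largest difference between the arrays at gene level.
Gimap6, chr6:48708245-48708494, minus strand, GRCm38.p6: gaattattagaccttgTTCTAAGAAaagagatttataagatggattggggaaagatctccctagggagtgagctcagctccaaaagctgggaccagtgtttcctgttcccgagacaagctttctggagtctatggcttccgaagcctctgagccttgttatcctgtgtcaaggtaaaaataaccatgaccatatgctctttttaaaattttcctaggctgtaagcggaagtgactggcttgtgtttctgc
Gimap9, chr6:48675885-48676134, plus strand, GRCm38.p6: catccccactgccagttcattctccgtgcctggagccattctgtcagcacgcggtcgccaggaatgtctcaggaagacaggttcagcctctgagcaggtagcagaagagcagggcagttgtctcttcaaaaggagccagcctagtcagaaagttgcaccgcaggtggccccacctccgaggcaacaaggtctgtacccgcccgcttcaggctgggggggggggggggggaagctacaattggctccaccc
The median GC content of the 9 Gimap windows was 48.0%, with a median of 4 CpG pairs, against 52.7% and 7 over all 32851 windows. The Gimap9 window was the richest of the 9 at 57.3% GC and 8 CpG pairs, and the Gimap6 window the poorest in GC at 43.3%. The letters GGAAGT, a core of Ets factor sites, were in windows of Gimap1, Gimap5, Gimap6 and Gimap9, and in those of 26.5% of all genes. TGTGGT, a core of Runx factor sites, was in windows of Gimap1, Gimap4 and Gimap7, and in those of 18.9% of all genes. GGAAGT and TGTGGT, like TTCNNNGAA, were sought on both strands, and none of the 3 was found in a window of all 8 genes.

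All 11 Gimap probe sets were bright, and they were nearly equal in the 2 genotypes. Each reached log2 9 in both arrays, and 8 reached log2 12 in both. By their brightest probe set, 7 of the 8 genes ranked in the top 10% of genes in both arrays, with Gimap5 as the exception. A rank here orders probe set signals, which depend on probe sequence as well as on transcript amount, and does not order the transcripts of different genes.

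Gimap4, a member found in the cytosol of T cells, had the brightest Gimap probe set, 1424375_s_at, at 15.01 in fl/fl and 15.02 in fl/wt. It was 99th of 18193 genes in fl/fl and 102nd in fl/wt, and the difference was -0.0100 (fl/fl minus fl/wt, log2). Its suffix marks probes that can be shared between transcripts. The unshared probe set of Gimap4, 1424374_at, read 13.63 in both arrays, with a difference of 0.0079. The Gimap4 signal was thus level between the genotypes by both probe sets, whose signs were opposite.

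Gimap8, the large member with several GTP-binding domains, read 14.02 in fl/fl and 13.98 in fl/wt, a difference of 0.043. Its rank among genes was 367 in fl/fl and 387 in fl/wt. Gimap6, which binds an Atg8-type protein and takes part in autophagy, read 13.97 in both arrays at 1427891_at, a difference of -0.0017, the smallest in the family. Its second probe set, 1456762_at, was at 11.95 in fl/fl and 12.03 in fl/wt, a difference of -0.083. Both Gimap6 probe sets were lower in fl/fl, by amounts that differed from each other by 0.081.

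Gimap7, whose human counterpart stimulates GTP hydrolysis by a partner GIMAP, was at 13.82 in fl/fl and 13.80 in fl/wt at 1425084_at, a difference of 0.024. Its dim probe set, 1444283_at, read 9.51 in fl/fl and 9.33 in fl/wt. That difference of 0.178, or 1.13-fold, was the largest of the family. The brighter Gimap7 probe set, 4.39 log2 units above the dim one, did not show a difference of that size.

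Gimap3 and Gimap5 are close relatives, and RefSeq lists Gimap5 as an older name of Gimap3. Gimap3, a protein tied to mitochondria, read 13.75 in both arrays, a difference of -0.0033, and ranked 504 in fl/fl and 503 in fl/wt. Gimap5, a lysosomal protein, was at 9.22 in fl/fl and 9.25 in fl/wt, a difference of -0.022. It had the dimmest Gimap probe set, 1444181_at, with ranks of 6422 in fl/fl and 6398 in fl/wt. The annotation bases the Gimap3 probe set on a RefSeq transcript of Gimap3, and the Gimap5 probe set on another sequence record. Whether either reads the other gene was not tested.

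Gimap1, a membrane-anchored member that mature T and B cells need, was at 12.88 in fl/fl and 12.82 in fl/wt, a difference of 0.064. It ranked 1105 in fl/fl and 1166 in fl/wt. Gimap9 read 12.66 in fl/fl and 12.55 in fl/wt, a difference of 0.104, or 1.07-fold, and ranked 1323 in fl/fl and 1431 in fl/wt. These were the largest differences in size among the 8 genes when each is read by its brightest probe set. In brightness, the 11 probe sets stood in the same order in both arrays. The mean levels of the Gimap8 and the brighter Gimap6 probe sets were 0.030 apart, less than the 0.043 between the 2 arrays for Gimap8, so their order is not separated from that spread.

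**Figure D1:**
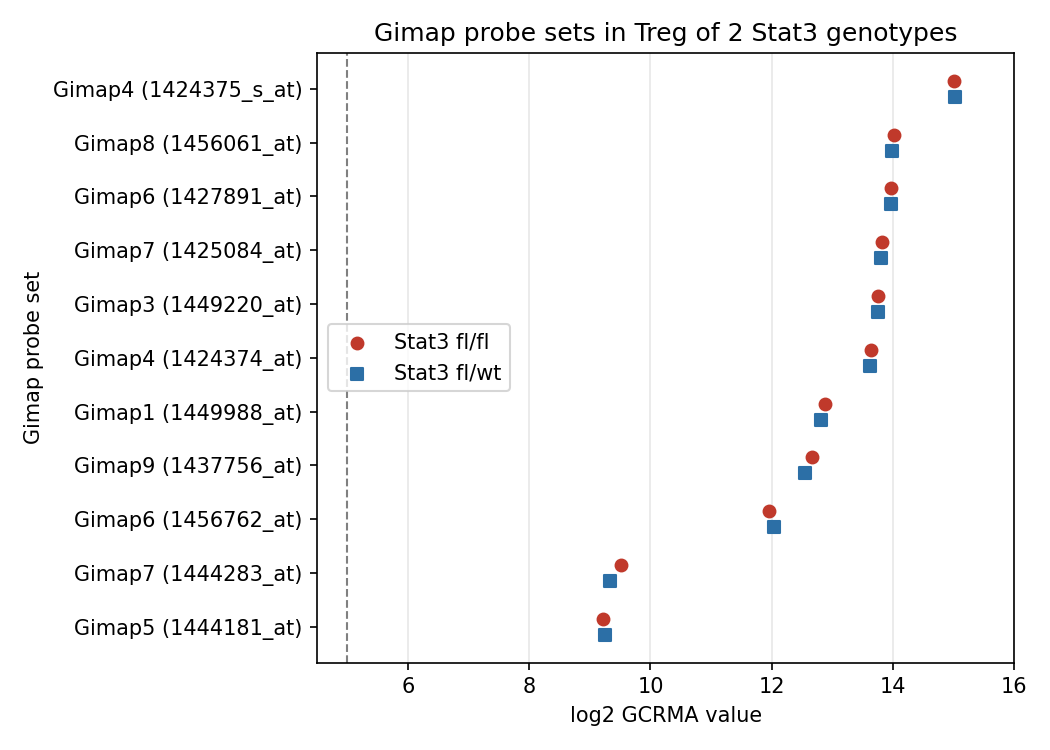
Log2 GCRMA value (x axis) of each of the 11 Gimap probe sets (rows, brightest at the top) in the fl/fl array (red circles) and the fl/wt array (blue squares), 1 array each, with a dashed line at log2 5. The 2 symbols nearly coincide in every row; the widest gap is 0.178, at the dim Gimap7 probe set.

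Taken as 11 probe sets, the family differed between the genotypes about as much as all probe sets of log2 9 or more. The SD of the 11 differences was 0.069, against 0.076 over the 9641 probe sets with 1 symbol at or above log2 9 in both arrays. Brightness is matched only loosely by this set, since 8 of the 11 reached log2 12 in both arrays and no SD was taken at that level. The largest of the 11 differences, 0.178, came from the dimmer Gimap7 probe set. It and the dimmer probe sets of Gimap4 and Gimap6 drop out when each gene is read by its brightest probe set. The SD of the 8 gene differences read so was 0.043, and no SD of genes at log2 9 or more was taken beside it. Of the 11, 6 were higher and 5 lower in fl/fl, and their differences ran from -0.083 to 0.178 with a median of 0.0079. Over all 16493 measured probe sets the median was -0.0025, and 48.7% were higher in fl/fl. The Gimap split followed the scaling of the arrays. It was 4 higher and 7 lower with each array centred on its median, where 33.2% of all measured probe sets were higher. Quantile normalisation gave 8 and 3, with 50.4% of all higher, and loess 7 and 4, with 49.3%. The median for the family was -0.024 with centring, where that of all probe sets was -0.034.

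None of the 11 reached 1.5-fold, against 0.649% of all measured probe sets in either direction. At 1.1-fold, 1 was higher in fl/fl, the dim Gimap7 probe set, where 9.59% of all were, and none was lower, where 10.5% of all were. Dim probe sets spread more than bright ones, as the plot of difference against level shows. Among the 9641 at log2 9 or more, a level chosen after the Gimap values were seen because all of them reach it, 46.7% were higher by any amount, 0.0207% passed 1.5-fold, 3.15% were higher by 1.1-fold and 3.75% lower. In that set, 2.91% of probe sets differed by more than the dimmer Gimap7 probe set and 14.5% by more than Gimap9. A share of 22.0% differed by more than the dimmer Gimap6 probe set. At the other end, 97.9% differed by more than the bright Gimap6 probe set and 95.6% by more than Gimap3.

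**Figure D2:**
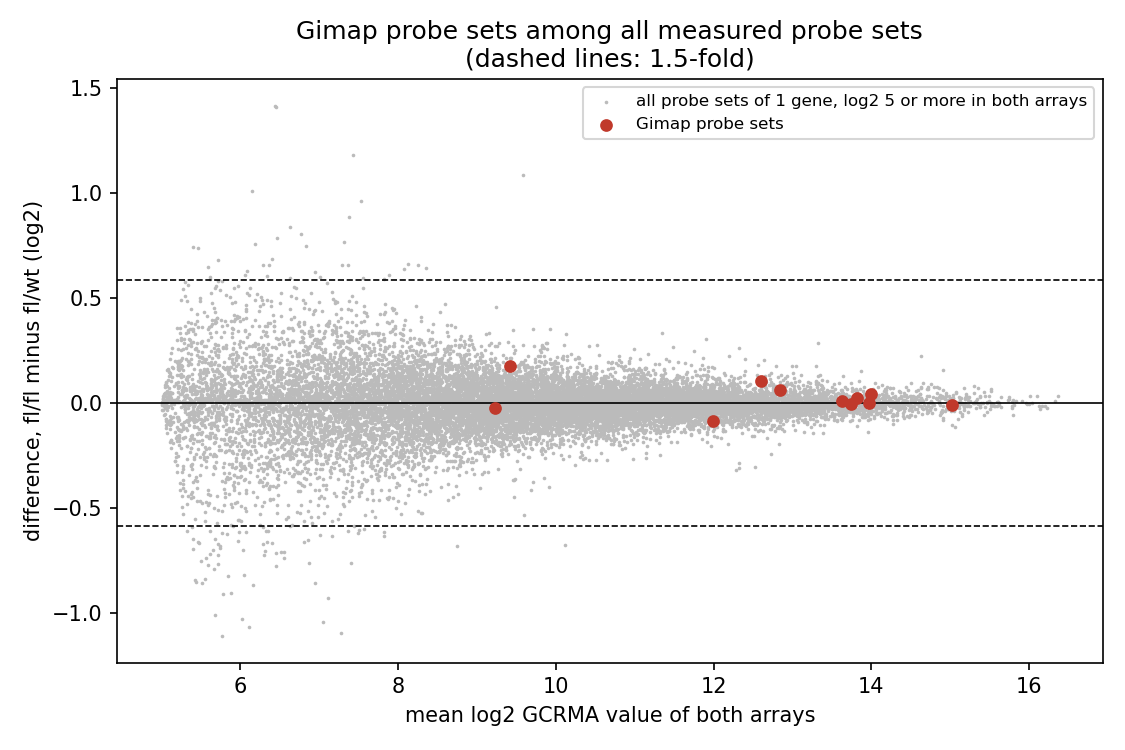
Difference between the arrays (fl/fl minus fl/wt, log2, y axis) against the mean log2 value of both (x axis) for 16493 measured probe sets (grey) and the 11 Gimap probe sets (red); dashed lines mark 1.5-fold. The Gimap probe sets lie between -0.083 and 0.178.

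Over 2089 genes with at least 2 probe sets of log2 9 or more in both arrays, the differences of probe sets of the same gene varied with a pooled SD of 0.072. This SD comes from the same 2 arrays, so it covers the spread between probes only and not that between animals or samples. Of the 11 Gimap probe sets, the dimmer ones of Gimap6 and Gimap7, and Gimap9, differed between the arrays by at least that much. The other 8 differed by less. Within the family, the differences of 2 probe sets of the same gene lay 0.018 apart for Gimap4, 0.081 for Gimap6 and 0.154 for Gimap7.

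Differences of the genes with and without the Stat letters overlapped. The 4 genes with a match differed by -0.0033 to 0.043, with a median of 0.011 and 2 of 4 higher in fl/fl. The 4 genes without a match differed by -0.022 to 0.104, with a median of 0.027 and 2 of 4 higher. All of these differences but that of Gimap9 were smaller in size than 0.072, the pooled SD given above. The motif was chosen after the values were seen, and a link of these differences to the letters was not tested.

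Of the 5 nearest named coding genes on each side, 6 were measured, 3 were under log2 5 and 1, Doxl2, had no probe set of 1 symbol. Before the cluster, the zinc finger gene Zfp775 read 9.99 in fl/fl and 9.97 in fl/wt, and Repin1 5.73 in fl/fl and 5.63 in fl/wt. Rarres2, which encodes the chemoattractant chemerin, read 7.11 in fl/fl and 7.18 in fl/wt, and Lrrc61 9.97 in fl/fl and 9.91 in fl/wt, while Atp6v0e2 was under log2 5. After it, the membrane protein genes Tmem176b (9.73 in fl/fl, 9.79 in fl/wt) and Tmem176a (9.18 in fl/fl, 9.11 in fl/wt) were measured, and Aoc1 and Doxl1 were not. The 6 measured neighbours differed by -0.073 to 0.097.

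**Figure D3:**
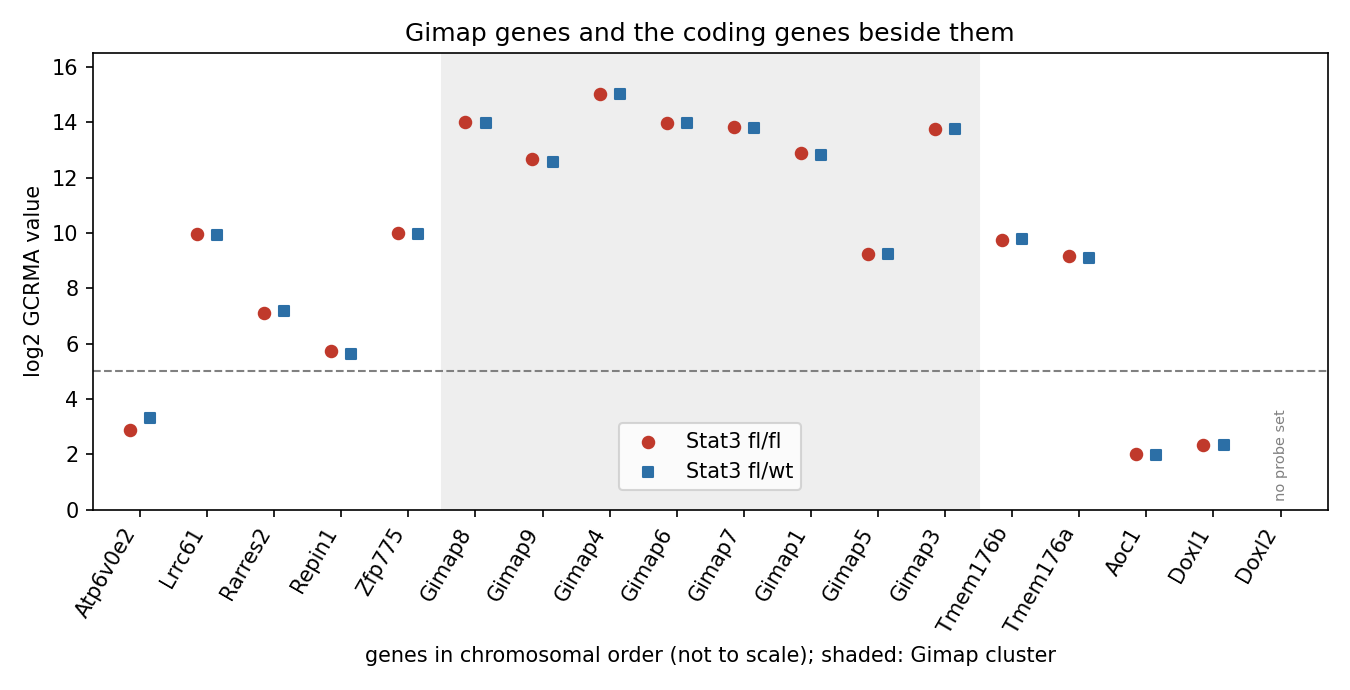
Log2 GCRMA value (y axis) of the brightest probe set of each Gimap gene (shaded) and of the 5 named coding genes on each side, in chromosomal order and not to scale, in the fl/fl array (red circles) and the fl/wt array (blue squares), with a dashed line at log2 5. All Gimap genes but Gimap5, at 9.22 in fl/fl and 9.25 in fl/wt, lie above log2 12, and none of the neighbours reaches 10. Signals of different probe sets do not order transcripts.

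For each Gimap gene the gene outside the family with the nearest pair of values over the 2 arrays was found. With 2 arrays this is a likeness of level and difference only. It gave Nme2 for Gimap4, Csf1r for Gimap8, Hax1 for Gimap6, St8sia4 for Gimap7, Srsf3 for Gimap3, Jak1 for Gimap1, Slc38a2 for Gimap9 and Zfp945 for Gimap5. The distances ran from 0.0022 for Nme2 to 0.021 for Csf1r. Jak1, a kinase upstream of Stat3, read 12.89 in fl/fl and 12.82 in fl/wt, a difference of 0.072 beside the 0.064 of Gimap1. Slc38a2, an amino acid transporter gene, differed by 0.089 beside the 0.104 of Gimap9.

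Genes linked to the Gimap family by function, by expression or as other immune GTPases were examined as lists, each gene read by its brightest probe set. A place on a list does not mean that the gene product is a known Gimap partner. At gene level 4 Gimap genes were higher and 4 lower in fl/fl (median 0.011), whereas over all 9668 measured genes the median was -0.0046, 47.4% were higher and 0.548% passed 1.5-fold in either direction. Of the Bcl2 family list, 9 of 11 genes were measured, 4 higher and 5 lower, with a median of -0.057. Bcl2, the survival protein bound by Gimap3 and Gimap5, read 13.12 in fl/fl and 13.20 in fl/wt, and Bcl2l1, which encodes Bcl-xL, 10.48 in fl/fl and 10.64 in fl/wt. Bcl2l1 was the lowest of the list at -0.156. The pro-apoptotic Bak1 was the highest at 0.66 (8.59 in fl/fl, 7.93 in fl/wt) and the only listed gene past 1.5-fold. Bak1 had no second measured probe set. Bax, a partner of Gimap4, had no probe set of 1 symbol.

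Mice without working Gimap5 have less Foxo protein and altered Gsk3 and mTOR signalling in T cells. All 11 genes of the list for these proteins were measured, 3 higher and 8 lower (median -0.067), and none passed 1.5-fold. Rptor, a subunit of the mTOR complex, was highest at 0.105, and Tsc1, an inhibitor of that complex, lowest at -0.196. A second Tsc1 probe set went the other way, at 0.34. Foxo1, a factor of T cell quiescence, read 12.69 in fl/fl and 12.67 in fl/wt.

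All 13 autophagy genes were measured, 5 higher and 8 lower, with a median of -0.023. They ran from Atg12, part of the conjugation machinery, at -0.154 to the cargo receptor Sqstm1 at 0.027. Gabarapl2, the Atg8-type partner of Gimap6, read 11.98 in fl/fl and 12.05 in fl/wt. Genes of quiescent and recirculating lymphocytes, a state in which Gimap genes are typically high, had 8 of 10 measured, 4 higher and 4 lower, with a median of 0.0057. Among them the homing receptor Ccr7 was lowest at -0.029 and the factor Lef1 highest at 0.061, with a second Lef1 probe set at -0.0063. Interferon-inducible GTPases, a separate family of immune GTP-binding proteins, had 9 of 14 measured, 3 higher and 6 lower, with a median of -0.012. Their range was from Irgm2 at -0.097 to Mx1 at 0.31. No gene of these 4 lists passed 1.5-fold.

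**Figure D4:**
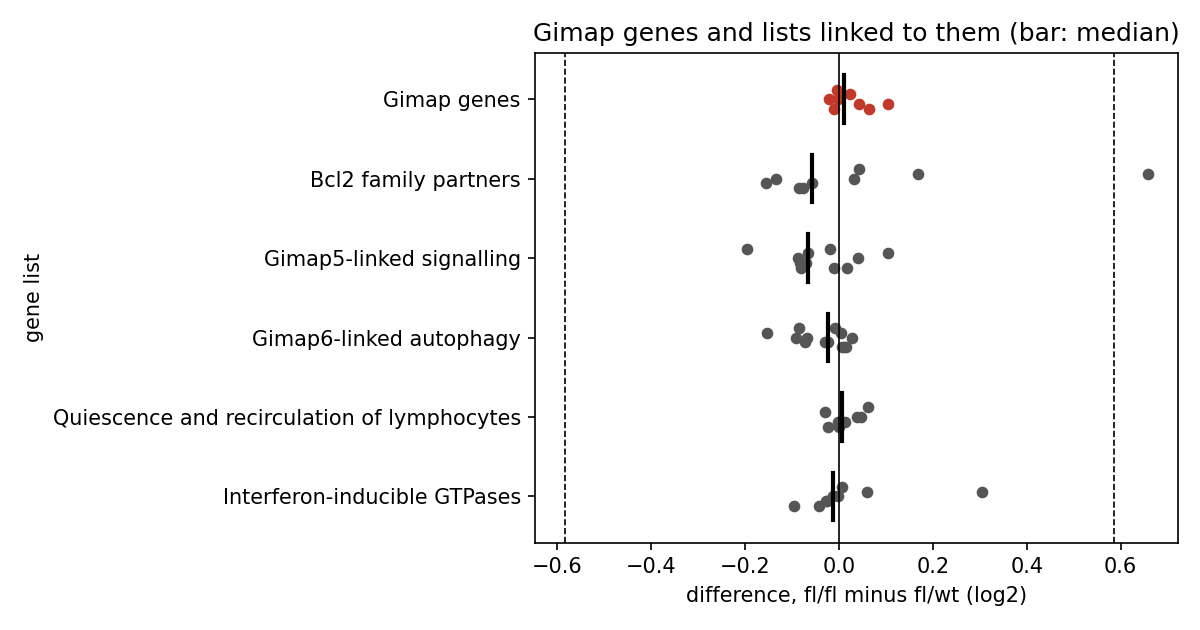
Difference between the arrays (fl/fl minus fl/wt, log2, x axis) for the measured genes of each list (points, 1 brightest probe set a gene; vertical offsets only separate points), with the list median as a black bar and dashed lines at 1.5-fold. The Gimap genes (red) span -0.022 to 0.104, and Bak1, at 0.66, is the only point past 1.5-fold.

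Gimap genes are also active in other lymphocytes and in endothelium, so markers of other cells bear on whose RNA the arrays read. T cell markers were measured for all 6 genes with a probe set, from Cd2 (14.87 in fl/fl, 14.94 in fl/wt) to Cd4 (12.21 in fl/fl, 12.27 in fl/wt). Of these, 3 were higher and 3 lower in fl/fl, between Cd2 at -0.073 and Cd3e at 0.088, with a median of 0.0065. Treg markers had 1 higher and 6 lower, between Il2ra at -0.103 and Nrp1 at 0.016, with a median of -0.043. A second Il2ra probe set was at -0.014, and further Nrp1 probe sets were at 0.077, 0.075 and 0.057. Beside the T cell and Treg marker counts and those below, 47.4% of all 9668 measured genes were higher, with a median of -0.0046. Of 7 endothelial markers only Pecam1, which leukocytes also carry, was measured, at 8.05 in fl/fl and 7.97 in fl/wt. B cell markers were measured for 5 of 6 genes with a probe set, from Cd79b (10.26 in fl/fl, 10.34 in fl/wt) to Blk (5.15 in fl/fl, 5.31 in fl/wt), and Pax5 lay under log2 5. In fl/fl 1 of the 5 was higher and 4 were lower, with a median of -0.129. The lowest was Ms4a1 at -0.34, whose second probe set was at 0.28, and the highest Cd79a at 0.162. CD8 T and NK cell markers were measured for 3 of 5, from Cd8b1 (8.81 in fl/fl, 8.54 in fl/wt) to Eomes (6.95 in fl/fl, 6.87 in fl/wt). Ncr1 and Klrk1 lay under log2 5 in both arrays, and the 3 measured were Cd8a, Cd8b1 and Eomes. Of these, 2 were higher and 1 lower, between Cd8a at -0.028, whose second probe set was at 0.059, and Cd8b1 at 0.27. Myeloid markers were measured for 8 of 9 and were bright, from Csf1r (14.00 in fl/fl, 13.99 in fl/wt) to Cd14 (10.51 in fl/fl, 10.56 in fl/wt), with Itgam under log2 5. They split into 4 higher and 4 lower, between Lyz2 at -0.071 and Adgre1 at 0.053, with a median of 0.00090. In bulk RNA, fewer cells of a type and less RNA per cell cannot be told apart, and the part of these other cells in the Gimap signals was not tested.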

How the data were processed

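Per the labels' protocols, total RNA of the sorted Treg became biotin-labelled cRNA and was read on 2 Affymetrix arrays. The 45101 deposited values per array are on the log2 scale, as read from their range, and come from GCRMA per the submitters' processing notes. Its version and settings, and any other arrays in that normalisation, are not stated there. Gene symbols came from the annotation of the platform, and 64 control probe sets were left out. Differences are fl/fl minus fl/wt. The number of arrays limits the precision.

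The members and lists were chosen with earlier results of these data known. Named genes were all Gimap probe sets, the nearest gene in value to each Gimap gene, 5 coding neighbours on each side, the highest and lowest difference of each list, and the brightest and dimmest marker; Bcl2, Foxo1, Gabarapl2, Stat3, Foxp3, Bax and markers under log2 5 were added outside the rule. The promoter motifs were chosen after the values were seen. Alternatives changed scaling, offset, minimum, probe sets and fold. Python 3.11.15 and statsmodels 0.14.6 (loess) were used, and the counting was tested on simulated data. Promoter sequences are from RefSeq, GRCm38.p6.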

Additional observations from a re-analysis of the deposited data

How the results depend on the processing

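With 1 array per genotype, no value here has a replicate error, and a shift was called small when it stayed under 0.137, the pooled SD of differences between probe sets of 1 gene at or above log2 5. By that measure the shift of every Gimap gene difference was small under all 10 alternatives. The measure is a weak one, since 0.137 is larger than any of the gene differences, of which the largest was 0.104 for Gimap9. Gimap7 moved from 0.024 to 0.101 with the mean or the median over its probe sets. That move is larger than 0.072, the same SD taken at log2 9 or more. The signs of the differences nearest to 0 were not stable. Gimap3 was 0.0063 with quantile normalisation, and Gimap4 was positive with it and, at 0.0079, without probe sets of shared suffix. Gimap6 was 0.0012 with loess and Gimap7 -0.0071 with centring. Gimap1, Gimap8 and Gimap9 were positive and Gimap5 negative under every alternative run. Each has 1 probe set above log2 9 without a shared suffix, so only centring, quantile normalisation and loess could have changed its sign. The number of Gimap probe sets lower in fl/fl, 5 as reported, was 3 with quantile normalisation, and the number past the fold threshold, 0 at 1.5-fold, was 1 at 1.1-fold. The other 31 counts and medians for the family were within 1.5 times or within the SD of 0.137. These limits are wide and do not show that the counts and medians are stable. They took in a split that turned from 6 higher and 5 lower to 4 and 7 with centring. They also took in a family median that went from 0.0079 to -0.024 with it. Minimums of log2 4 and 6, no minimum and 32 added on the linear scale gave the same split of 6 and 5, which they could not change. All 11 Gimap probe sets reach log2 9 in both arrays, and a constant added to both arrays keeps each sign. Restricting the comparison to log2 9, chosen after seeing the data, moved the share of all probe sets past 1.5-fold to 0.0207%, against 0.649% at log2 5. No paired analysis was possible because each genotype has 1 array.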
